A study of Homo sapiens with 16 samples.

Results

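Long non-coding RNAs (lncRNAs) whose level differed between 6 lines of SW480, a widely used cell line of human colon adenocarcinoma, were described together with the protein-coding genes beside them. A member was a gene of GENCODE type lncRNA whose highest line mean of RPM + 0.1 was at least 2 and at least 4 times its lowest line mean. RPM is a gene's count divided by the column total of its sample and multiplied by 1e+06. MALAT1, NEAT1, KCNQ1OT1, COLCA1 and LINC02700 were left out of the rule. It found 66 members among 14008 lncRNA genes in a table of 66023 genes, and 1508 lncRNA genes had a highest line mean of at least 2. The members were thus 4.38% of the lncRNAs at that level, and 495 of 12634 protein-coding genes (3.92%) met the same thresholds. The members were chosen by their RPM values in all 16 samples, so these values are a description and were not tested.

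The study asked how the level of Ajuba, a LIM domain adaptor protein, alters SW480 cells. Parental cells (n = 2) were unmodified. The shScrambled line (n = 2) carried a lentiviral hairpin in pLKO.1-puro that targets no mammalian gene. The shAjuba1 line (n = 3) carried a lentiviral shRNA against the coding region of Ajuba and the shAjuba2 line (n = 3) one against a non-coding region of its transcript. Ajuba OE (n = 3) carried a lentiviral construct with Ajuba under a CMV promoter, tagged with FLAG and HA and followed by a puromycin resistance gene. Control (n = 3) carried that construct with the exogenous Ajuba cut out. All transduced lines were selected with puromycin, and no source used here calls a line a single clone. The study calls its replicates technical, and the sources used here do not say whether the samples of a line came from separate transductions, so the spread between them may not cover the spread between separately made lines.

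lncRNA genes are transcribed and spliced much like protein-coding genes, but their transcripts are not known to be translated into a functional protein. Many are named after the gene beside them. An antisense transcript (AS) usually runs through that gene on the opposite strand, and a divergent transcript (DT) usually starts from the same promoter region and runs away from it. Names and positions can differ. FZD10-AS1 lies 203 bases from FZD10 without overlap, and TRIM8-DT lies within TRIM8 on the opposite strand. Others are host genes, whose introns or exons hold the hairpins of microRNAs or the sequence of small nucleolar RNAs. lncRNAs are known for expression that is more restricted to a cell type than that of protein-coding genes.

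The libraries held 30132396 to 69684675 counts on genes, so that 1 count was worth 0.0144 to 0.0332 RPM. AJUBA had a mean RPM of 90.2 ± 2.00 in Parental (SD, n = 2), 82.5 ± 1.26 in shScrambled (n = 2), 50.1 ± 3.12 in shAjuba1 (n = 3), 62.0 ± 5.93 in shAjuba2 (n = 3), 93.2 ± 6.34 in Control (n = 3) and 526 ± 56.1 in Ajuba OE (n = 3). It differed from the control line in shAjuba1 (log2 fold change -0.73, SE 0.083, edgeR adjusted p = 2.19e-05) and in Ajuba OE (2.56, SE 0.11, adjusted p = 7.69e-05), and in shAjuba2 it was lower but did not pass the test (-0.46, SE 0.13, adjusted p = 0.0773). Of 10 markers of colon epithelium, 7 had a median of at least 1 RPM, whereas CDX1, CDH17 and LGALS4 were lower. Of the other lists, 1 of 5 leukocyte, 2 of 6 fibroblast and 1 of 3 endothelial markers reached a median of 1 RPM. They were LYZ (2.39), COL1A1 (12.4) and PDGFRB (6.17), and VWF (2.36). Of those below 1 RPM, PTPRC, DCN and CDH5 had a median of 0.

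The member with the most counts, ENSG00000281181, has to be set aside before the rest. It lies at chr21:8437629-8438551 on the minus strand (hg38), within the ribosomal DNA repeats. It had 1427 and 57.3 RPM in Parental, 69.5 and 153 in shScrambled, 4958, 42.7 and 0.248 in shAjuba1, and 134, 78.3 and 99.4 in shAjuba2. Control samples had 388, 11043 and 5683 RPM and Ajuba OE samples 32.6, 270.3 and 254.6. The samples of a single line thus spanned almost the full range of the data, and the lines account for 34.4% of the variance of log2(RPM + 0.1), against a median of 95.9% over the 66 members. The 4 other genes annotated beside it summed to at most 0.631 RPM in any sample. Ribosomal RNA left in the libraries was not tested as a part of this value. It is the member highest in Control and lowest in shAjuba2, and the counts by line below change by 1 in those lines without it.

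**Figure D1:**
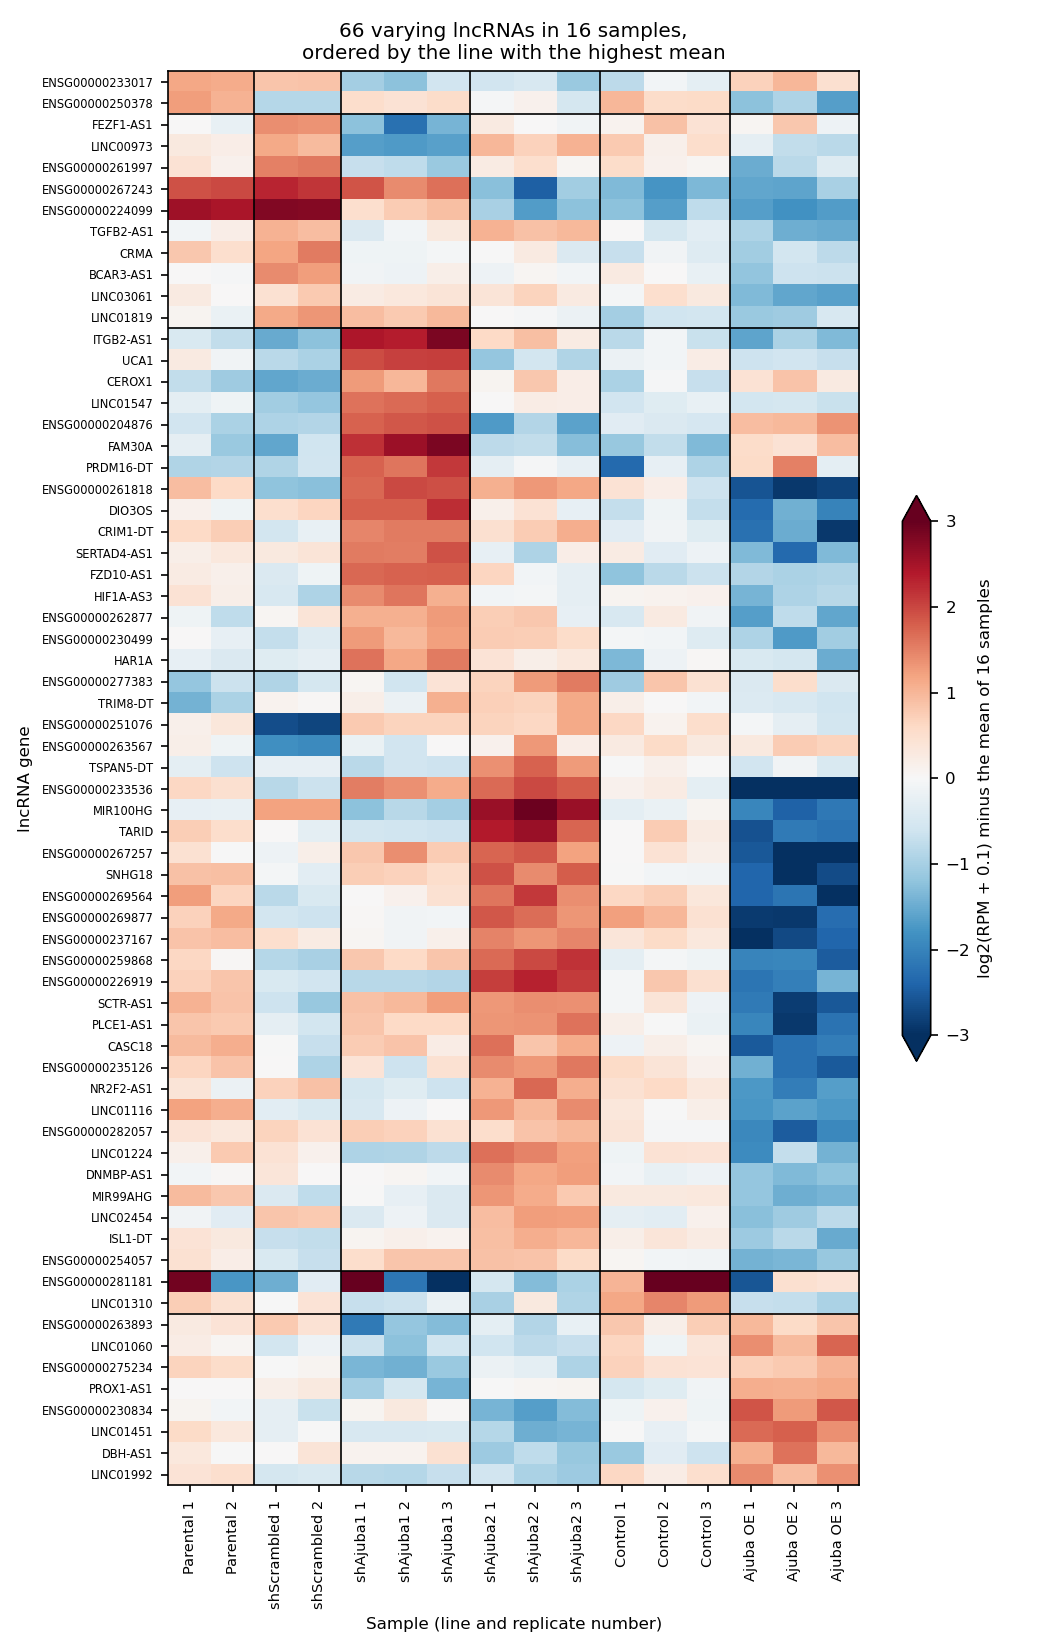
Heat map of log2(RPM + 0.1) of each of the 66 lncRNAs (rows) in the 16 samples (columns), minus the mean of the row over all samples, from blue (lower) to red (higher). Rows are ordered by the line with the highest mean and then by the line with the lowest; most rows of the largest block, highest in shAjuba2, are blue in the 3 Ajuba OE samples.

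The shAjuba2 line held the highest mean of 28 members and shAjuba1 that of 16. shScrambled was highest for 10, Ajuba OE for 8, and Parental and Control for 2 each. For shAjuba1, shScrambled and Ajuba OE these were 24.2%, 15.2% and 12.1% of the members. The shares were close to that, 22.6%, 15.5% and 11.9%, among the 1508 lncRNAs with a highest mean of at least 2. For shAjuba2 it was 42.4% against 28.9%, for Parental 3.03% against 4.77% and for Control 3.03% against 16.4%. Ajuba OE was the lowest line for 40 members (60.6%), whereas it was lowest for 24.1% of the 1508 lncRNAs with a highest mean of at least 2 and for 57.4% of the 495 protein-coding genes that met both thresholds. The other lowest lines were shAjuba1 (9), shScrambled (6), shAjuba2 (6), Control (3) and Parental (2). The most frequent combination was highest in shAjuba2 and lowest in Ajuba OE (23 members), followed by shAjuba1 over Ajuba OE (9) and shScrambled over Ajuba OE (6). Replicate 2 of Ajuba OE and of Control deviated from their line means alike (correlation 0.505 across genes). With replicate 2 of shAjuba2, Control and Ajuba OE left out, 38 members were lowest in Ajuba OE and 27 highest in shAjuba2.

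**Figure D2:**
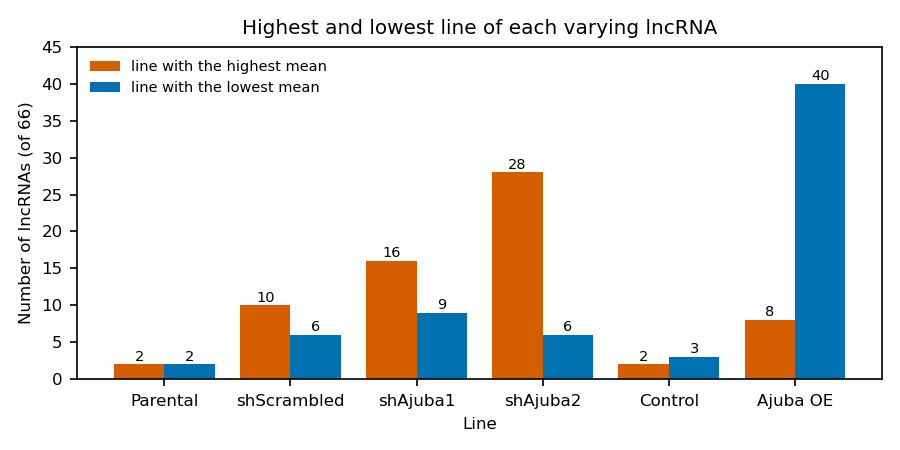
Number of the 66 lncRNAs that had their highest (orange) and lowest (blue) line mean of RPM in each of the 6 lines. The tallest bars are the 40 lncRNAs lowest in Ajuba OE and the 28 highest in shAjuba2.

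Each member was also split at the widest gap between neighbouring line means. Ajuba OE alone lay below the gap for 25 members and alone above it for 5. shAjuba1 was alone above it for 8 and alone below for 4. shAjuba2 was alone above for 4, shScrambled alone above for 3 and below for 2, Control alone above for 1 and Parental alone below for 1. The other members split into sets of more than 1 line on each side. In 63 members no sample of the high lines overlapped a sample of the low lines. In all 66 the samples of the highest and of the lowest line were apart. The rule and the split at the widest gap favour both counts, and no share over other genes was computed.

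Members ran from 0.0440 to 35.4 RPKM (RPM per kilobase of exon) in their highest line, with ENSG00000281181 left out. LINC03061 had the most, and MIR99AHG, whose annotated exons sum to 58906 bases, the least. The exons of a member summed to a median of 3038 bases, against 2598 bases for the lncRNAs with a highest mean of at least 2. Single-exon genes were 12.1% of the members and 24.7% of those lncRNAs. The members lay on 22 chromosomes, with 7 each on chromosomes 1 and 19 and 6 on chromosome 2. GENCODE gave a symbol for 40 of them and an identifier alone for 26.

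Among the 25 members for which Ajuba OE stood alone at the bottom, SNHG18 had one of the wider gaps. SNHG18 (ENSG00000250786, chr5:9546170-9550725, plus strand) is the host gene of the small nucleolar RNA SNORD123. It had 0.301, 0.125 and 0.226 RPM in Ajuba OE, and 1.98, 1.88 and 1.84 in Control. The other lines were at 3.74 and 3.86 (Parental), 1.92 and 1.59 (shScrambled), 3.43, 3.32 and 2.95 (shAjuba1) and 7.78, 5.54 and 7.26 (shAjuba2). All Ajuba OE samples lay below every sample of the other lines, and the highest line mean was 21.9 times the lowest (RPM + 0.1).

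ENSG00000267257 (chr18:58535415-58538552, plus strand), which overlaps ALPK2 on the opposite strand, was counted 5, 0 and 1 times in the Ajuba OE samples (0.0718, 0 and 0.0251 RPM). Its line means were 1.06 ± 0.17 in Control (SD, n = 3), 1.08 ± 0.27 in Parental (n = 2) and 2.99 ± 0.68 in shAjuba2 (n = 3). ENSG00000233536 on chromosome 11 had 0.187, 0.188 and 0.151 RPM in Ajuba OE, 2.39, 2.59 and 1.75 in Control and 7.31, 8.85 and 8.01 in shAjuba2. Of its exon bases, 39% belong to LINC02700 on the same strand as well, so that reads of these genes can be confused. TARID, an antisense RNA of the TCF21 gene named for its role in promoter demethylation, was counted 1, 3 and 2 times in Ajuba OE and reached 3.30 ± 0.97 RPM in shAjuba2 (n = 3), against 0.807 ± 0.244 in Control (n = 3). ENSG00000261818 (chr16:65580668-65646947) had 0.129, 0.0833 and 0.101 RPM in Ajuba OE, and its highest samples, 4.46, 5.34 and 5.13, were those of shAjuba1. ENSG00000259868 on chromosome 14 had 0.187, 0.188 and 0.101 RPM in Ajuba OE, 0.816, 0.979 and 0.934 in Control and 3.53, 4.32 and 4.98 in shAjuba2.

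LINC03061 (chr13:109269634-109278512, plus strand) differed from these in that its other 5 lines were close together. It had 46.5, 39.8 and 37.8 RPM in Ajuba OE, whereas the remaining 13 samples lay between 112 and 201 RPM. DIO3OS, transcribed opposite to the imprinted DIO3 gene, had 1.66, 3.13 and 2.09 RPM in Ajuba OE, 5.18, 7.94 and 5.24 in Control and 30.2, 30.1 and 40.6 in shAjuba1. ENSG00000237167, which starts 82 bases from ENSG00000235126 on the other strand of chromosome 3, had 0.330, 0.438 and 0.578 RPM in Ajuba OE and 4.40, 5.14 and 4.26 in Control. The lowest sample outside Ajuba OE was 3.15 RPM. Its partner ENSG00000235126 had 0.215, 0.0833 and 0.0503 RPM in Ajuba OE and 1.19, 1.02 and 0.842 in Control, and their line means followed each other (Pearson r = 0.96 over the 6 lines, log2 scale, which share all libraries).

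A second pair of members that lie together was low in Ajuba OE. ENSG00000269564 and ENSG00000269877 overlap on opposite strands of chromosome 19 (chr19:53786928-53789168), at the cluster of miR-371a, miR-372 and miR-373, microRNAs known from embryonic stem cells. ENSG00000269564 had 0.172, 0.208 and 0.0251 RPM in Ajuba OE, 2.07, 2.26 and 1.68 in Control and 4.24, 6.04 and 3.62 in shAjuba2. ENSG00000269877 had 0.0861, 0.0833 and 0.176 RPM in Ajuba OE and 4.84, 4.23 and 3.31 in shAjuba2. In both, every Ajuba OE sample was below every other sample. Of the exon bases of ENSG00000269877, 30% lie within MIR371A and MIR372 on the opposite strand, and it shares no exon bases with ENSG00000269564.

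Host genes of 2 microRNA clusters were members with the same highest and lowest lines. MIR100HG lies on chromosome 11 and MIR99AHG on chromosome 21, and their clusters are related copies: each holds a member of the miR-99/100, let-7 and miR-125 families. The mature sequences of the 5p arms are shown because the clusters share their seeds, the bases 2 to 8 by which a microRNA pairs with its targets. They are from RefSeq (GRCh38.p14), 5′ to 3′, with the seed in capitals.
miR-100-5p (MIR100HG): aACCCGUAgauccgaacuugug
miR-99a-5p (MIR99AHG): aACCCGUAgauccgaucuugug
let-7a-5p (MIR100HG): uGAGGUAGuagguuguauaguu
let-7c-5p (MIR99AHG): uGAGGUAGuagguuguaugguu
miR-125b-5p (both): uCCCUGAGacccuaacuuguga

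MIR100HG (ENSG00000255248, chr11:122028325-122556721, minus strand) had 11.87, 15.23 and 11.96 RPM in shAjuba2. It had 4.50 and 4.51 RPM in shScrambled, 1.60 in each Parental sample, 1.54, 1.63 and 2.00 in Control, 0.754, 1.03 and 0.883 in shAjuba1 and 0.416, 0.271 and 0.352 in Ajuba OE. No samples of neighbouring lines in this order overlapped except those of Parental and Control. The shAjuba1 and shAjuba2 lines thus lay on opposite sides of shScrambled. MIR99AHG (ENSG00000215386, chr21:15928296-16646364, plus strand) had 3.05, 2.64 and 2.08 RPM in shAjuba2 and 2.32 and 2.11 in Parental, which overlapped. It was at 1.43, 1.45 and 1.46 in Control, 1.15, 0.962 and 0.828 in shAjuba1, 0.823 and 0.636 in shScrambled and 0.459, 0.354 and 0.377 in Ajuba OE. The mature microRNAs were not measured, since the libraries were made from poly(A) RNA.

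**Figure D3:**
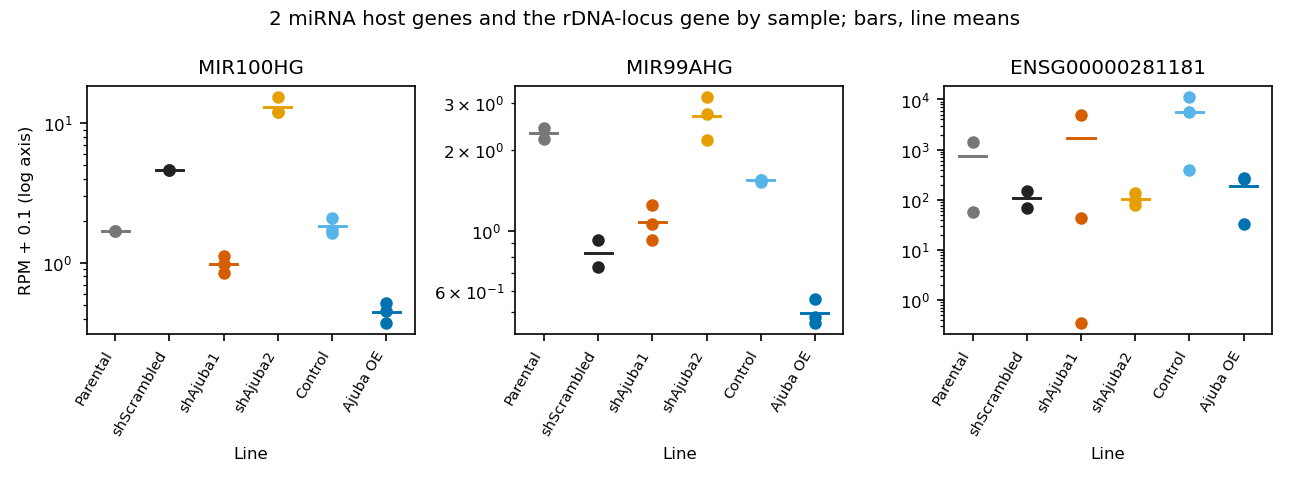
RPM + 0.1 on a log axis in every sample (points) and the line mean (bars) for the microRNA host genes MIR100HG and MIR99AHG and for the rDNA-locus gene ENSG00000281181, by line. The host genes are highest in shAjuba2 and lowest in Ajuba OE with little spread within lines, whereas ENSG00000281181 spans 0.248 to 11043 RPM, with shAjuba1 alone at 0.248 to 4958.

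The shAjuba2 line was also alone above the gap for TSPAN5-DT, a divergent transcript of the tetraspanin gene TSPAN5. It had 24.7, 32.5 and 22.8 RPM there, and between 5.32 and 10.5 RPM in the other 13 samples. ENSG00000226919, antisense to RGS7, had 2.41, 2.82 and 2.43 RPM in shAjuba2 and at most 0.952 in any other sample, with 0.0287, 0.0417 and 0.126 in Ajuba OE. ENSG00000277383 met the rule with shAjuba2 samples of 1.59, 2.46 and 3.03 RPM, but Control samples of 0.408, 1.77 and 1.34 overlapped them.

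In shAjuba1, 8 members stood alone above the others. ITGB2-AS1 (chr21:44921051-44929680, plus strand) runs antisense to ITGB2, the beta-2 integrin subunit of leukocytes. It had 23.7, 22.8 and 31.5 RPM in shAjuba1, 6.62, 8.13 and 5.14 in shAjuba2, 1.45 and 1.79 in shScrambled, 3.14 and 2.58 in Parental, 2.42, 4.08 and 2.71 in Control and 1.38, 2.19 and 1.66 in Ajuba OE. LINC01547 lies 3134 bases beyond its end, on the other strand, and had 10.5, 11.1 and 11.8 RPM in shAjuba1 and at most 3.90 in the other samples. The line means of these neighbours had r = 0.98 over the 6 lines. Of the other members within 100 kb of each other, ENSG00000269564 and ENSG00000269877 had r = 0.99. ENSG00000233017 and CRMA, which lie 96488 bases apart on chromosome 20, had r = 0.43.

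UCA1, a lncRNA first described in bladder carcinoma, had 7.93, 8.40 and 8.58 RPM in shAjuba1. It was at 1.07 and 0.974 in shScrambled, 0.817, 1.31 and 1.01 in shAjuba2, 1.25, 1.29 and 1.18 in Ajuba OE, 1.72, 1.86 and 2.32 in Control and 2.37 and 1.83 in Parental. The shAjuba2 and shScrambled samples overlapped. FAM30A had 2.34, 3.09 and 3.73 RPM in shAjuba1 and at most 0.930 in any other sample. PRDM16-DT had 2.64, 2.32 and 3.34 RPM in shAjuba1, and its next highest sample was Ajuba OE replicate 2 at 2.17, far from the 1.09 and 0.553 of the other Ajuba OE samples. FZD10-AS1, HIF1A-AS3 and HAR1A, a lncRNA of a region that changed fast in human evolution, made up the rest.

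The members lowest in shAjuba1 alone were LINC00973, FEZF1-AS1, ENSG00000275234 and ENSG00000263893. LINC00973 had 1.82, 1.76 and 1.85 RPM in shAjuba1, 13.2 and 11.5 in shScrambled and 11.9, 9.57 and 12.3 in shAjuba2. FEZF1-AS1, which has been studied in colorectal cancer, had 0.565, 0.232 and 0.497 RPM in shAjuba1 and 4.06 and 3.92 in shScrambled. Its shAjuba2 samples, 1.81, 1.49 and 1.36, lay between these lines and overlapped those of Parental (1.50 and 1.25) and Control (1.60, 2.79 and 2.03).

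Some members set the shScrambled line apart, which carries no hairpin against Ajuba. ENSG00000261997, within LPCAT2, had 7.60 and 7.93 RPM in shScrambled and at most 3.84 elsewhere, and BCAR3-AS1 had 4.42 and 3.90 against at most 1.92. CRMA was the third, with 3.24 and 4.25 RPM in shScrambled and at most 2.49 elsewhere. In the other direction, ENSG00000251076 on chromosome 5 had 0.384 and 0.358 RPM in shScrambled, whereas no other sample was under 1.99. ENSG00000263567 on chromosome 17 likewise had 0.384 and 0.358 RPM there and at least 1.06 elsewhere. ENSG00000224099 and ENSG00000267243 split the lines otherwise, with Parental, shScrambled and shAjuba1 above shAjuba2, Control and Ajuba OE. ENSG00000224099 had 9.65 and 8.98 RPM in Parental, 11.4 and 11.1 in shScrambled, 2.28, 2.72 and 3.01 in shAjuba1 and at most 0.888 in the other 9 samples. ENSG00000267243 had 1.36 to 2.58 RPM in the higher lines and 0 to 0.176 in the lower ones. ENSG00000204876 had 20.2, 21.8 and 22.4 RPM in shAjuba1 and 11.3, 11.6 and 15.1 in Ajuba OE, against at most 4.66 elsewhere. LINC01819 had 9.44 and 10.9 RPM in shScrambled and 8.23, 7.43 and 8.50 in shAjuba1, against at most 4.51 elsewhere.

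Ajuba OE was alone above the gap for DBH-AS1, ENSG00000230834, LINC01060, LINC01451 and PROX1-AS1. LINC01451 had 6.04, 6.42 and 4.83 RPM in Ajuba OE and at most 2.72 in the other samples. ENSG00000230834 had 5.48, 3.56 and 5.38 RPM, against at most 1.76 elsewhere. PROX1-AS1, antisense to the homeobox gene PROX1, had 5.42, 5.33 and 5.53 RPM in Ajuba OE, 1.69, 1.90 and 2.30 in Control and 1.17, 1.69 and 0.883 in shAjuba1. DBH-AS1 had 10.5, 15.6 and 9.76 RPM in Ajuba OE, 2.21, 3.88 and 3.19 in Control and 2.26, 2.86 and 2.20 in shAjuba2. LINC01310 was the single member alone high in Control, with 1.86, 2.33 and 2.03 RPM there, and TRIM8-DT the single one alone low in Parental, with 1.35 and 1.88 RPM. All exon bases of TRIM8-DT lie within those of TRIM8 on the opposite strand.

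At the edge of the rule, LINC01224 (highest mean of RPM + 0.1, 2.05), HAR1A (2.12) and CRIM1-DT (2.15) were the members just inside the minimum. ENSG00000225680 (1.95), LINC02331 (1.95) and HDAC2-AS2 (1.89) were just outside it. TRIM8-DT (ratio 4.07), PROX1-AS1 (4.10) and ENSG00000233017 (4.14) were just inside the ratio, and MIR1915HG (3.96), ENSG00000225889 (3.95) and ENSG00000260710 (3.90) just outside. Of a list of 85 lncRNAs with a known role, 77 were in the table, 49 had a highest line mean of at least 2, and 3 were members, UCA1, MIR100HG and FEZF1-AS1.

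The neighbouring genes were not used by the rule and could be tested. For 56 members a protein-coding gene lay within 100 kb, and 54 different genes were the nearest. Each was compared between the highest and the lowest line of its member with edgeR's quasi-likelihood test (Benjamini-Hochberg adjusted p under 0.05 over all genes). Of 50 neighbours that passed the filter on low counts, 36 were significantly higher in the line in which their member was higher and 1 was lower there. In the same pairs of lines, 11.1% of all genes tested were higher on average over the 50 neighbours (3.03% to 20.5% by pair). The pair of shAjuba2 over Ajuba OE held 17 of them, of which 13 were called, where 10.4% of all genes were higher. Of 8 in shAjuba1 over Ajuba OE 5 were called (13.8% of all genes) and of 4 in shScrambled over Ajuba OE 3 (8.23%). Neighbours of members highest in Ajuba OE were called in 3 of 3 cases over shAjuba1 (13.7%) and 2 of 4 over shAjuba2 (8.47%). The remaining pairs of lines had at most 3 neighbours each, among them 2 of shAjuba2 over shScrambled (3.19%), neither called, and the 1 of shAjuba2 over shAjuba1 (10.1%), called. Backgrounds for the others were 3.03% (Control over Ajuba OE), 4.84% (Parental over Ajuba OE), 20.5% (Parental over shAjuba1), 12.1% (shAjuba1 over Control), 18.2% (shAjuba1 over shScrambled), 4.26% (shAjuba2 over Parental) and 20.2% (shScrambled over shAjuba1). The median log2 fold change of the 50 neighbours was 1.34, 44 of them were higher by sign, and 27 were both called and at least 2-fold higher. By how they lie to each other, 10 of 10 neighbours on the opposite strand with starts within 1 kb, 13 of 17 that overlap on the opposite strand, 3 of 4 that overlap on the same strand, 6 of 9 apart on the opposite strand and 4 of 10 apart on the same strand were called with their member. Whether these classes differ was not tested. Without the neighbours that overlap their member 18 of 27 were called.

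**Figure D4:**
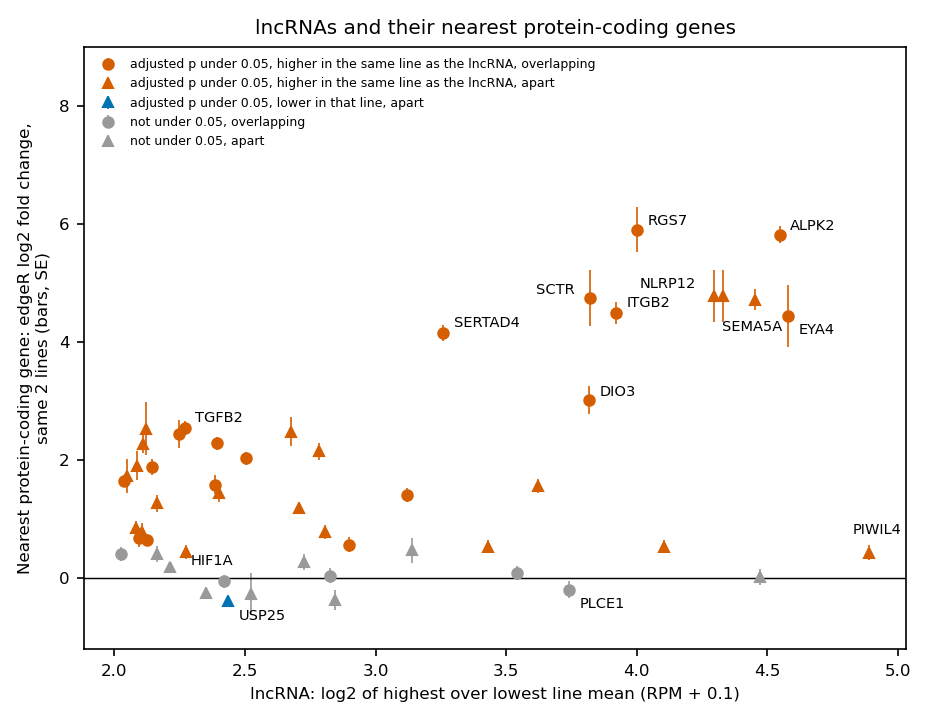
For each lncRNA with a tested neighbour, the log2 ratio of its highest to its lowest line mean (x axis) and the edgeR log2 fold change of the nearest protein-coding gene between the same lines (y axis, bars are SE). Circles overlap the lncRNA and triangles lie apart. Most neighbours lie above 0, up to 5.91 for RGS7, and 1 of those called, USP25, lies below it.

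The strand option of the counting is not given in the sources used here. The methods of the study list counting options for paired ends, feature type and gene identifier, and none for strand. Where an lncRNA and its neighbour share exon bases on opposite strands, their reads could be told apart only if strand was used. Reads from introns of an overlapping neighbour can also fall on exons of the member, on the same strand whatever the option. The part of such reads was not tested for the 23 overlapping neighbours, of which 18 were called with their member. Of 146 genes whose exon bases all lie within opposite-strand exons of a gene with over 50000 counts, 127 had no count in any sample. That share cannot tell whether strand was used. Counting without strand that leaves out reads overlapping several genes would give such genes no counts either. Of the members, 32 shared some exon bases with another gene and 2 shared over 50% of them. Shares with the opposite strand were 38% for TGFB2-AS1, 26% for DNMBP-AS1 and 16% for SERTAD4-AS1, whose neighbours were called. PLCE1-AS1, whose neighbour was not called, shared 40%.

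Neighbours with starts within 1 kb on the opposite strand included genes of ligands, receptors and transcription factors. SEMA5A, a transmembrane semaphorin of axon guidance, starts 95 bases from SNHG18 and had 52.2, 38.3 and 41.1 RPM in shAjuba2, 16.9, 14.2 and 16.5 in Control and 1.85, 1.33 and 1.41 in Ajuba OE. It differed between shAjuba2 and Ajuba OE by 4.72 on the log2 scale (SE 0.18, edgeR adjusted p = 6.33e-06), and the line means of SNHG18 and SEMA5A had r = 0.99. ISL1, a LIM homeodomain transcription factor whose start is 116 bases from that of ISL1-DT, had 15.5, 18.4 and 16.4 RPM in shAjuba2 and 2.86, 3.58 and 3.24 in Ajuba OE (log2 difference 2.27, SE 0.16, edgeR adjusted p = 8.11e-05). shScrambled was as low as Ajuba OE for ISL1, with 3.40 and 3.70 RPM, and ISL1-DT was low in these lines too (1.56 and 1.49 RPM in shScrambled and 1.16, 1.42 and 0.830 in Ajuba OE). SLX9, beside LINC01547, moved less than the lncRNA: it had 37.2, 31.8 and 43.3 RPM in shAjuba1 and 20.7 and 22.1 in shScrambled (log2 difference 0.79, SE 0.12, edgeR adjusted p = 2.11e-04).

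The sequence between these starts is shown because a single stretch of fewer than 120 bases separates lncRNA and protein-coding gene. It is from RefSeq promoter windows of GRCh38.p14, 5′ to 3′ on the strand of the lncRNA, with the bases between the starts in capitals and the first bases of the lncRNA in lower case.
SNHG18 and SEMA5A, chr5:9546076-9546249, plus strand: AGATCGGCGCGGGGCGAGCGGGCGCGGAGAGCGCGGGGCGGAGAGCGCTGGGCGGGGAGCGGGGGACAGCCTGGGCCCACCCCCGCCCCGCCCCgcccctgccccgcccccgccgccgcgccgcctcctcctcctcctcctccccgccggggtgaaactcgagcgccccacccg
ISL1-DT and ISL1, chr5:51383283-51383447, minus strand: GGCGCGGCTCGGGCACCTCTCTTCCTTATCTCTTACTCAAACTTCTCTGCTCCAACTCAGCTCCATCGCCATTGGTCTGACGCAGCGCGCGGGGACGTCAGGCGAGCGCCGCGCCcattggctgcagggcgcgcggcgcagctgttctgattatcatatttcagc
LINC01547 and SLX9, chr21:44939864-44940024, minus strand: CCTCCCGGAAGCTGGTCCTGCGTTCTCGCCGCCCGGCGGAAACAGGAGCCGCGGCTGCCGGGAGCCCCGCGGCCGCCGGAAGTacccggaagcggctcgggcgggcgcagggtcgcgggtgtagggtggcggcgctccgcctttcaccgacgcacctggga
The 300-base windows that hold these sequences have 43, 33 and 42 CG dinucleotides. The median was 5 over the windows of all lncRNAs in the table, 6 over the 45 windows found for 29 members, and 14 over the windows of all genes.

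TGFB2, the ligand TGF-beta 2, starts 700 bases from TGFB2-AS1. It had 16.2 and 16.7 RPM in shScrambled, 7.92, 6.85 and 6.35 in Control and 2.60, 2.63 and 2.77 in Ajuba OE. The difference between shScrambled and Ajuba OE was 2.54 on the log2 scale (SE 0.12, edgeR adjusted p = 6.56e-05), and TGFB2-AS1 had 6.42 and 5.90 RPM in shScrambled and 1.55, 1.04 and 1.01 in Ajuba OE. PRDM16, a zinc finger transcription factor of brown fat, had 8.14, 7.87 and 9.85 RPM in shAjuba1 and 1.72, 1.90 and 2.12 in Control (log2 difference 2.15, SE 0.14, edgeR adjusted p = 3.56e-05). Its Ajuba OE samples, 5.94, 4.79 and 4.55, were above Control. CRIM1, a transmembrane protein that binds bone morphogenetic proteins, had 319, 317 and 309 RPM in shAjuba1 and 107, 85.5 and 111 in Ajuba OE (log2 difference 1.56, SE 0.11, edgeR adjusted p = 1.54e-05). By line means of RPM + 0.1, the log2 difference was 1.64 for CRIM1 and 3.62 for CRIM1-DT.

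Among the antisense pairs, the log2 difference of the lncRNA in RPM + 0.1 was 3.92 for ITGB2-AS1, 3.26 for SERTAD4-AS1 and 4.55 for ENSG00000267257. It was 3.82 for DIO3OS and 2.03 for PROX1-AS1. The constant of 0.1 narrows differences near 0, such as that of ENSG00000267257 (mean of 0.0323 RPM in Ajuba OE). These values were therefore not ranked against the edgeR values of the protein-coding genes. ALPK2, an alpha-kinase, had 60.4, 65.5 and 54.9 RPM in shAjuba2, 18.4, 19.5 and 18.6 in Control and 1.05, 1.00 and 0.905 in Ajuba OE. It differed between shAjuba2 and Ajuba OE by 5.82 (SE 0.15, edgeR adjusted p = 1.58e-06), but 87% of the exon bases of its lncRNA ENSG00000267257 lie within ALPK2 exons. ITGB2 had 10.9, 10.5 and 12.6 RPM in shAjuba1 and 0.439 and 0.537 in shScrambled, a log2 difference of 4.49 (SE 0.18, edgeR adjusted p = 7.18e-09), with 13% of the exon bases of ITGB2-AS1 shared. Of the leukocyte markers, PTPRC was at or near 0 in all samples, whereas LYZ had 0.580 to 4.16 RPM. SERTAD4, of the SERTA domain proteins, had 25.9, 26.5 and 23.9 RPM in shAjuba1 and 1.35, 1.21 and 1.53 in Ajuba OE (log2 difference 4.15, SE 0.13, edgeR adjusted p = 3.32e-07). DIO3, the deiodinase that inactivates thyroid hormone, had 4.84, 4.55 and 4.72 RPM in shAjuba1, 0.932, 0.877 and 1.00 in Control and 0.732, 0.521 and 0.327 in Ajuba OE (log2 difference 3.02, SE 0.23, edgeR adjusted p = 2.14e-05). PROX1 was higher in Ajuba OE, with 73.6, 75.8 and 71.2 RPM, than in shAjuba1, with 26.0, 26.3 and 22.4 (log2 difference 1.64, SE 0.10, edgeR adjusted p = 7.22e-06).

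**Figure D5:**
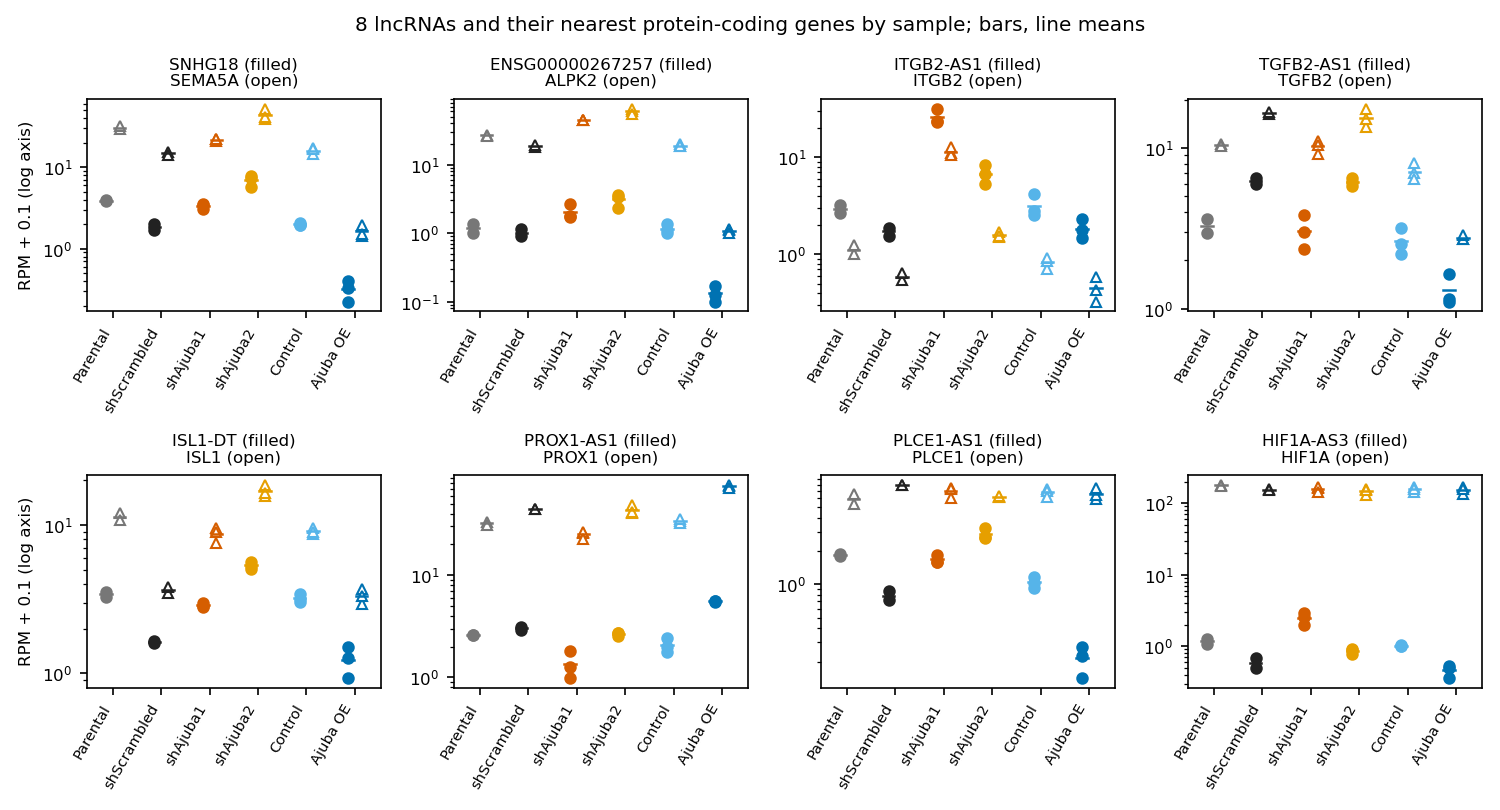
RPM + 0.1 on a log axis in every sample of 8 lncRNAs (filled circles) and their nearest protein-coding genes (open triangles), by line, with line means as bars. In 6 panels both genes differ between lines in the same direction at their extremes, whereas PLCE1 and HIF1A stay nearly level while PLCE1-AS1 and HIF1A-AS3 change.

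Some neighbours that passed the test had few counts in the lower line. RGS7, a regulator of G protein signalling, had 2.39, 2.84 and 2.70 RPM in shAjuba2 and 0.0144, 0.0417 and 0.0754 in Ajuba OE (log2 difference 5.91, SE 0.38, edgeR adjusted p = 5.08e-05). Of the exon bases of its lncRNA ENSG00000226919, 28% lie within exons of RGS7 or THAP12P8 on the opposite strand. NLRP12, an innate immune receptor beside the miR-371 to miR-373 cluster, had 2.79, 2.30 and 2.06 RPM in shAjuba2 and 0.0287, 0.0625 and 0.176 in Ajuba OE (log2 difference 4.78, SE 0.44, edgeR adjusted p = 2.68e-04). EYA4, a transcriptional coactivator beside TARID, was never above 0.370 RPM.

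Other neighbours called with their member were well expressed. LPCAT2, an acyltransferase of phospholipid synthesis, had 237 and 221 RPM in shScrambled and 48.4, 53.8 and 40.2 in shAjuba1 (log2 difference 2.29, SE 0.11, edgeR adjusted p = 2.23e-08). ENSG00000261997 lies within LPCAT2 on the same strand and shares 5% of its exon bases, and reads from LPCAT2 introns can fall on the others. DCBLD2, a transmembrane protein that lies 79363 bases from LINC00973, had 839 and 805 RPM in shScrambled and 384, 390 and 318 in shAjuba1 (log2 difference 1.19, SE 0.10, edgeR adjusted p = 2.09e-06). DNMBP, an exchange factor of CDC42, had 211, 213 and 210 RPM in shAjuba2 and 47.5, 44.9 and 51.2 in Ajuba OE (log2 difference 2.03, SE 0.11, edgeR adjusted p = 2.13e-05). DENND1C, an exchange factor of a Rab GTPase, had 33.4, 28.8 and 31.1 RPM in Ajuba OE and 7.26, 8.93 and 10.6 in shAjuba1 (log2 difference 1.88, SE 0.14, edgeR adjusted p = 1.85e-05).

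For 14 of the 50 tested neighbours the test did not go with the member, 13 of which passed in neither direction. HIF1A, the oxygen-regulated transcription factor, had 161, 167 and 143 RPM in shAjuba1 and 171, 134 and 158 in Ajuba OE (log2 difference -0.05, SE 0.11, edgeR adjusted p = 0.772), while HIF1A-AS3 had 2.43, 2.79 and 1.88 RPM in shAjuba1 and 0.258, 0.396 and 0.427 in Ajuba OE. PLCE1, a phospholipase C, had 6.11, 6.04 and 6.19 RPM in shAjuba2 and 5.78, 6.29 and 7.39 in Ajuba OE (log2 difference -0.19, SE 0.15, edgeR adjusted p = 0.393), although PLCE1-AS1 had 2.54, 2.57 and 3.15 RPM in shAjuba2 and 0.172, 0.0417 and 0.126 in Ajuba OE. USP25, a deubiquitinase that lies 48232 bases from MIR99AHG, was the neighbour called in the other direction, with 25.6, 22.4 and 24.3 RPM in shAjuba2 and 29.6, 28.5 and 29.7 in Ajuba OE (log2 difference -0.39, SE 0.10, edgeR adjusted p = 0.0333). That call was lost with library size alone (adjusted p = 0.112), with every counted gene kept (0.0795) and when any sample of the fit other than Ajuba OE replicate 2 was left out (0.062 to 0.12). SLC39A10, EPB41L4A and LMF1 differed by 0.02, 0.09 and 0.04 on the log2 scale, with SE of 0.14, 0.12 and 0.13, between the lines in which ENSG00000224099, ENSG00000251076 and CEROX1 had ratios of 22.2, 11.7 and 7.10. Neighbours of UCA1, MIR100HG, FEZF1-AS1 and CRMA did not pass the filter on low counts.

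In the comparisons of the study, samples of the compared lines did not overlap for most members, which the rule favours. Between shAjuba1 and shScrambled, 32 members were higher and 26 lower without overlap, where 33.8% and 32% of all genes with a highest mean of at least 2 were so. Between shAjuba2 and shScrambled, 37 were higher and 18 lower (29.3% and 21.7% of all genes). Between Ajuba OE and Control, 11 were higher and 43 lower (9.68% and 17.3% of all genes). The median log2 difference of the members was 0.54, 0.59 and -1.08 in these comparisons, against 0.04, 0.11 and -0.18 for lncRNAs with a highest mean of at least 2.

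The neighbours were tested in the same comparisons. In shAjuba1 against shScrambled, 17 of 49 tested neighbours were significantly higher and 17 lower (edgeR), where 18.2% and 20.2% of all genes were. In shAjuba2 against shScrambled, 9 of 51 were higher and 5 lower, where 3.19% and 4.44% of all genes were. That count of 14 fell to 6 without shScrambled replicate 1, to 3 without shScrambled replicate 2 and to 8 without shAjuba2 replicate 1, and rose to 23 without shAjuba2 replicate 2. In Ajuba OE against Control, 4 of 49 were higher and 15 lower, where 2.39% and 3.03% of all genes were. That count of 19 was 21 without replicate 2 of both lines. It was higher still with the replicate number as a block, as given in the last section. The neighbour moved in the direction of its member in 34 of 36 member and neighbour pairs called in shAjuba1, 15 of 15 in shAjuba2 and 20 of 20 in Ajuba OE.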

How the data were processed

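The authors deposited counts of read pairs per gene for 16 samples, without normalization. Per the labels and the methods of the study, poly(A) RNA was made into stranded libraries (TruSeq), sequenced as paired 50-base reads, aligned to hg38 with HISAT2 and counted on exons with featureCounts. The strand option, the annotation release and the tool versions are not given in the sources used here. Samples were grouped by line as labelled. Although the labels speak of triplicates, Parental and shScrambled have 2 samples each.

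From the counts, RPM was computed with the column total. Gene types, symbols and positions were taken from GENCODE release 44, which held 56434 of 66023 genes and 99.8% of all counts. The neighbour of a member was the nearest protein-coding gene within 100 kb. Pairs of lines were fitted on their own with edgeR 4.0.16 (R 4.3.3) after filterByExpr and TMM, with a two-sided quasi-likelihood test, and genes with an adjusted p under 0.05 were called. SE was taken as the size of the log2 fold change over the root of its F statistic. The fit was tested on simulated counts. Alternatives included DESeq2 1.42.0, other scalings and filters, other windows and each sample left out. Where that left 1 sample in a line, it was assumed to vary like the others. Depth limits the lowest lncRNAs, and values near 1 count carry counting error of their own size. Figures used Python 3.11.15 and matplotlib 3.10.9.

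The members and lists were chosen with earlier results of these data known. The genes named are those with the highest mean, the largest ratio or the widest gap for each line, known lncRNAs, the neighbours with the smallest adjusted p, members at the thresholds and members beside each other. Others, such as the neighbours that did not follow their member, were named after their values were seen.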

Additional observations from a re-analysis of the deposited data

Results flagged for a closer look

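In 11 members all shAjuba1 samples lay on one side of both shScrambled samples and all shAjuba2 samples on the other. The share of all genes split in this way was not computed, so 11 cannot be called many or few. Of all genes with a highest mean of at least 2, 65.8% did not overlap between shAjuba1 and shScrambled, in either direction. Between shAjuba2 and shScrambled it was 51.0%. The difference between the hairpin lines was not tested for them, because their values chose them. As the log2 of the shAjuba1 over the shAjuba2 line mean of RPM + 0.1, DIO3OS (1.82), SERTAD4-AS1 (1.92) and ENSG00000230834 (1.59) were higher in shAjuba1. MIR100HG (-3.73), ENSG00000226919 (-3.02), TARID (-2.87), LINC01224 (-2.33), TSPAN5-DT (-2.16), NR2F2-AS1 (-1.82), LINC02454 (-1.47) and ENSG00000237167 (-1.39) were higher in shAjuba2. Nearest neighbours of 10 of them could be tested between shAjuba1 and shAjuba2 with edgeR, where 19.6% of all genes were called in either direction. DIO3 was higher in shAjuba1 by 2.42 on the log2 scale (SE 0.21, adjusted p = 9.19e-05) and SERTAD4 by 3.08 (SE 0.18, adjusted p = 1.68e-05). NR2F2, a nuclear receptor, was lower in shAjuba1 (-1.91, SE 0.11, adjusted p = 1.73e-05), as was ZNF91, a KRAB zinc finger gene (-1.02, SE 0.13, adjusted p = 8.05e-04). BDH1, EYA4, MSRB3, RGS7 and TSPAN5 were called lower in shAjuba1 too, with log2 differences from -0.44 to -2.63. CTSD, beside ENSG00000230834, did not pass (0.29, SE 0.19, adjusted p = 0.315).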

How the results depend on the processing

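The rule found 66 members, and 24 with a constant of 1, 116 with a minimum of 1 RPM, 32 with a minimum of 5 RPM, 127 with a ratio of 3 and 27 with a ratio of 8. With TMM scaling it found 65, of which 62 were among the 66. Leaving out 1 sample gave 64 to 69 members, and 53 members met the rule in all of these fits and without replicate 2 of the 3 lines. The count of neighbours called with their member (36) was 32 to 37 without 1 sample and 18 without overlapping neighbours, where fewer were tested. Without overlapping neighbours the counts in the study's comparisons, where fewer were tested as well, were 20 (shAjuba1, main count 34), 5 (shAjuba2, 14) and 8 (Ajuba OE, 19). Without 1 sample they ranged from 27 to 38, from 3 to 23 and from 15 to 19, and the shAjuba2 count was 23 without replicate 2 of shAjuba2. Members lowest in Ajuba OE numbered 40 to 42 without 1 sample of that line, and members highest in shAjuba2 26 to 27, alternatives that were chosen after seeing the data. Of 37 single neighbours called, 9 lost the call under at least 1 alternative, and none reversed. Same-numbered replicates were not taken as paired, because no label says what a number shares and the correlation of their deviations from the line means differed between numbers. It was 0.505 for replicate 2 of Ajuba OE and Control and 0.188 for replicate 2 of shAjuba2 and shScrambled, but between -0.0632 and 0.0995 for the others. With the replicate number as a block, 34, 21 and 31 neighbours were called in shAjuba1, shAjuba2 and Ajuba OE (34, 14 and 19 without it), and 37 with their member. The share of all genes called with the block is not given here, so these counts cannot be read as particular to the neighbours. The causes of these differences were not tested. Low counts limit the lncRNAs near 1 count per library.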
